A study of Rattus norvegicus with 16 samples.

Results

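The untreated hypothalamus of the rat is described here from the 4 arrays titled control, out of 16 in the series. The 4 animals were male Wistar rats aged 7 to 8 weeks, exposed to neither restraint nor odour, and each gave 1 array of total RNA from the hypothalamus. The other 12 arrays came from rats that were restrained, inhaled (R)-(-)-linalool, or had both, and served only to set the common scale of signals. No control rat is compared with a treated rat. The labels number the control rats 1 to 4 and name no shared litter, day or dissection.

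The hypothalamus is a small region at the base of the brain that ties the nervous system to the pituitary. Its magnocellular neurons send oxytocin and vasopressin to the posterior pituitary, while smaller neurosecretory neurons release hormones such as corticotropin-releasing hormone, thyrotropin-releasing hormone, growth-hormone-releasing hormone, somatostatin and gonadotropin-releasing hormone into portal blood at the median eminence. Neurons of the lateral hypothalamus make melanin-concentrating hormone or orexin, and neurons of the arcuate nucleus make neuropeptide Y or proopiomelanocortin. The pars tuberalis, a part of the pituitary stalk that makes the subunits of thyrotropin, lies against the median eminence, and the thalamus lies above.

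Signals are given in the linear units of the deposited table after quantile normalization between the 16 arrays, a step that gives every array the same set of values. A gene is represented by its brightest probe set, and 14217 named genes were ranked by the mean over the 4 rats. The percentile of a gene is the share of these genes with a lower signal. A probe set's signal depends on its probes as well as on the transcript, so the ranks are ranks of signals and not of RNA amounts. In a whole piece of tissue, fewer cells of a type and less RNA per cell cannot be told apart.

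Because the table holds no detection calls, 41 sensory receptor genes, of smell, taste or the vomeronasal organ, served to show what a probe set reads for a gene with little transcript. Their mean signals ran from 1.90 to 29.6, with a median of 9.71, and the 95th percentile, 25.8, was taken as the background level. Of all genes, 11838 (83.3%) lay above it. Among 66 genes of other organs, 14 lay above it, 6 of 20 from liver, 2 of 11 from pancreas, none of 10 from testis, 2 of 11 from kidney and gut and 4 of 14 from muscle, skin and lung, and the median signal of these genes was 14.3, against 201.9 over all genes. None of the 66 exceeded 279.9, the median of the genes above background. Pnlip, pancreatic lipase, was the highest of them at 227, and Alb, serum albumin, stood at 38.8. Counts of genes above background in the lists below are to be read beside the 83.3% of all genes.

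The brightest genes of the untreated hypothalamus were those of mitochondrial respiration, astrocytes, myelin, ribosomes and the cytoskeleton. COX2, the mitochondrially encoded subunit 2 of cytochrome c oxidase, ranked 1st with 16370, 17142, 16370 and 16370 in control rats 1 to 4. The repeated value is a product of quantile normalization, in which the same rank takes the same value on each array. COX1, the subunit encoded beside it, followed with 13787, 12931, 13370 and 13370. In all 4 rats these were the brightest pair in the same order.

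Sparcl1, a matrix protein secreted by astrocytes, ranked 3 with 12205, 11362, 12026 and 12931, a mean of 12131 ± 645 (SD, n = 4). Cst3, the protease inhibitor cystatin C, ranked 4 with 11853, 11542, 11362 and 11362. Below them came Tmsb4x, the actin-binding thymosin beta 4, with 11542, 12026, 11542 and 10498. Rps29, of the small ribosomal subunit, and Zwint, a kinetochore protein also known to bind Snap25, have overlapping ranges with it. Rps29 read 12026, 10709, 11699 and 11154, and Zwint read 11362, 10836, 11026 and 11853. Mbp, myelin basic protein, read 10935, 11853, 10498 and 11542. Ptgds, which makes prostaglandin D2, read 10288, 10013, 11154 and 12026, with rat 4 the highest. S100b, a calcium-binding protein of astrocytes, read 10709, 9784, 10192 and 10935. The brightest 12 were completed by Scd2, a fatty acid desaturase, and Cpe, the carboxypeptidase that trims peptide hormones. Scd2 read 9585, 10498, 10619 and 9944, and Cpe read 9827, 9654, 9827 and 9531. From Sparcl1 down to Cpe no neighbouring pair kept its order in all 4 rats, and each step between neighbours was smaller than the SD of that step over rats.

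The brightest 10 genes held 1.71% of the summed signal of all named genes, the brightest 100 held 10.7% and the brightest 1000 held 44.3%. These shares are nearly fixed by the normalization and varied little between rats for that reason. Across the 4 rats, 77 genes were in the brightest 100 of every one. The 100th gene stood at 5394. Of the brightest 100, 19 were cytosolic ribosomal proteins, 10 astrocyte genes, 6 of glycolysis, 6 of calmodulin, ubiquitin and translation, 5 nuclear subunits of oxidative phosphorylation, 4 of myelin and 4 of the cytoskeleton, and a gene may be in more than 1 list. The other 39 were in no list, among them Scd2, Nnat, an imprinted gene of brain and endocrine cells (9181 ± 1072), and Gnas, the stimulatory G protein subunit (9116 ± 369).

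**Figure D1:**
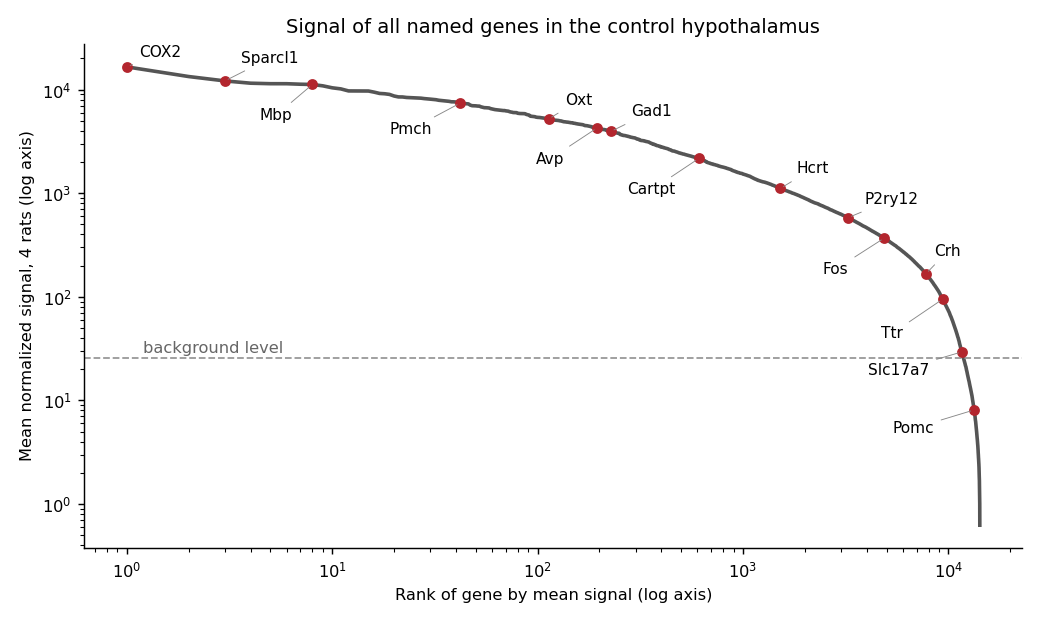
Mean normalized signal over 4 control rats (y, log axis) against the rank of each of 14217 named genes (x, log axis), with 15 genes marked and the background level of 25.8 as a dashed line. The curve is shallow down to about Pmch (rank 42) and steepens as it nears the background level, where Slc17a7 (29.4) lies just above it and Pomc (8.09) below.

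Astrocyte genes were the brightest of the cell type lists. All 17 measured lay above background, 10 were in the brightest 100, and their median percentile was 99.5. After Sparcl1, Cst3 and S100b came Gja1, the gap junction protein connexin 43 (8988 ± 789), Apoe, the lipid carrier (8672 ± 556), Ndrg2 (8268 ± 395), Clu, clusterin (7342 ± 520), and Aldoc, the astrocytic aldolase (7304 ± 428). The water channel Aqp4 stood at 6210 ± 389 and the glutamate transporter Slc1a3 at 5868 ± 225. Gfap, the intermediate filament by which astrocytes are commonly stained, ranked 140 (4852 ± 349). Slc1a2, the other main astrocytic glutamate transporter, was the lowest of the list at 112 ± 22.8. Its dimmer probe set read 68.4. A signal depends on the probes, so these low values do not show that the Slc1a2 transcript was scarce.

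Myelin genes followed. All 17 measured oligodendrocyte genes lay above background, with 4 in the brightest 100 and a median percentile of 95.2. Mobp, a myelin structural protein, stood at 9691 ± 554, Cldn11, the tight junction protein of myelin, at 8395 ± 614, and Cnp, a myelin enzyme, at 6077 ± 811. Mog and Mag, minor proteins of the myelin sheath, stood at 1951 ± 421 and 2151 ± 423. Of the 17 genes, 13 were highest in control rat 2 and 9 lowest in control rat 4, beside 2993 and 2402 of 11838 over all genes above background. Mog read 1792, 2370, 2207 and 1435 in rats 1 to 4. The list's mean on the log2(signal + 16) scale was 10.59, 11.08, 10.87 and 10.54. The 8 genes of oligodendrocyte precursors, 3 of them shared with the list above, had a median percentile of 79.0, with Pdgfra, the growth factor receptor of these cells, at 1065 ± 95.8 and Cspg4, their proteoglycan NG2, at 118 ± 12.5.

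All 16 pan-neuronal genes lay above background, with a median percentile of 97.2. Snap25, a protein of the release machinery of synaptic vesicles, led with 7151, 7517, 8460 and 7226 in rats 1 to 4. Stmn3, Uchl1 and the microtubule protein Map2 lay between 4897 and 5333. Rbfox3, which encodes the neuronal marker NeuN, stood at 468 ± 35.7 and Syt1, the calcium sensor of release, at 442 ± 243.

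Genes of inhibitory transmission were brighter than most. Gad1, which makes GABA, stood at 3945 ± 311 and Slc32a1, which loads it into vesicles, at 998 ± 393, and all 8 genes of the list lay above background with a median percentile of 89.4. Gad1 has a second probe set that read 234, so its rank rests on the brighter of the pair. The 10 glutamate genes, all above background, had a median percentile of 63.6. The vesicular transporter Slc17a6, typical of hypothalamus and thalamus, stood at 3300, 2755, 3091 and 2864, whereas Slc17a7, the transporter typical of cerebral cortex, read 24.0, 23.7, 51.7 and 18.2. Only rat 3 exceeded the background level for Slc17a7.

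The monoamine, histamine and acetylcholine list was mixed, with 10 of 13 genes above background and a median percentile of 60.0. Th, the first enzyme of dopamine synthesis, stood at 537 ± 174, Ddc, the next enzyme, at 528 ± 30.4, and Hdc, which makes the histamine of tuberomammillary neurons, at 440 ± 125. The serotonin transporter Slc6a4 (22.6 ± 12.2) and the noradrenaline transporter Slc6a2 (14.2 ± 2.68), whose neurons lie in the brainstem, were not above background. Chat, which makes acetylcholine, stood at 72.4 ± 35.1.

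Genes of microglia, vessels and ependyma had lower median percentiles than the astrocyte, oligodendrocyte and neuronal lists above. All 17 microglial genes lay above background with a median percentile of 57.6. They ran from Ctss, a lysosomal protease (3889 ± 466), through C1qa, a complement component (956 ± 77.6), P2ry12, an ADP receptor (581 ± 64.2), and Cx3cr1, the fractalkine receptor (146 ± 20.2), to Cd68 at 51.2 ± 12.1. The 14 endothelial genes, all above background, had a median percentile of 58.0, with Cldn5, the tight junction protein of the blood-brain barrier, at 1140 ± 201 and Pecam1 at 99.9 ± 21.7. The 10 pericyte and smooth muscle genes had a median percentile of 41.2, with Rgs5 at 341 ± 84.7 and Cnn1 (23.4 ± 4.65) not above background. Of the 14 endothelial genes, 8 were highest in rat 3 and 9 lowest in rat 1. Of the 9 pericyte and smooth muscle genes above background, 6 were highest in rat 3 and 4 lowest in rat 1. Over all genes above background, 2561 of 11838 were highest in rat 3 and 2713 lowest in rat 1. In the ependyma and tanycyte list 16 of 17 lay above background with a median percentile of 51.2. Vim, a filament of these and other cells, stood at 2284 ± 264, Crym at 517 ± 68.5, and Rax, the transcription factor of tanycytes, at 49.8 ± 17.6. Dio2, the tanycytic enzyme that activates thyroid hormone, had a mean of 10.3 ± 9.12, below background.

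Genes of blood and of tissues next to the hypothalamus differed in level. The median percentile was 72.2 for meninges, 27.9 for choroid plexus, 19.7 for pituitary and 16.2 for blood. In that order 14 of 14, 10 of 13, 8 of 13 and 3 of 8 genes lay above background, beside 83.3% of all genes. Only the meningeal list was above that share. The brightest of the choroid plexus list was Enpp2, autotaxin, which oligodendrocytes also make, at 2530 ± 339 and the 96.7th percentile. Ttr, transthyretin, a defining transcript of choroid plexus, stood at 103, 76.6, 60.0 and 139 in rats 1 to 4, at the 34.1st percentile, and Kl, Kcnj13 and Kcne2 of the same list were not above background. Hbb, a globin of red cells, ranked 152 with 2857, 5465, 4869 and 5698, the lowest in rat 1. Of the other blood genes, Alas2 and Ptprc lay above background. Meningeal collagens lay above background, with Col1a2 at 802 ± 154 and Col3a1 at 700 ± 217, and of the 14 meningeal genes 9 were highest in rat 4 and 10 lowest in rat 1. Over all genes above background, 2684 of 11838 were highest in rat 4 and 2713 lowest in rat 1, the rat with the highest ratios of 3′ to 5′ signal given below, whose part in this was not tested. The pituitary hormone genes Prl, at 1.32 ± 0.444, and Gh1, at 28.3 ± 5.77, were at or near background, whereas Cga and Tshb were not and are described below.

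The label of hypothalamus was compared with genes of other brain regions. Of 26 hypothalamic transcription factors, 21 lay above background, near the 83.3% of all genes. Their median percentile was 23.3, so that most were dim. Ndn, an imprinted gene of hypothalamic neurons, ranked 107 (5308 ± 301). Arnt2, a partner of Sim1, stood at 928 ± 77.2, Nkx2-1, which patterns the ventral hypothalamus, at 246 ± 74.2, Isl1 of the arcuate nucleus at 152 ± 40.5, Nr5a1 of the ventromedial nucleus at 46.7 ± 17.2 and Sim1 of the paraventricular nucleus at 40.9 ± 9.18. Otp (24.96 ± 16.7) and Pou3f2 (3.77 ± 3.08) were not above background. Of 13 genes of cortex and hippocampus, 11 lay above background, also near the share over all genes, with a median percentile of 22.6. They ran from Tbr1 at 19.0 ± 9.45 and Emx1 at 19.9 ± 14.4 through Neurod6 at 47.5 ± 9.48 to Nrgn, a calmodulin-binding protein of dendrites, at 547 ± 101. The transcription factors of hypothalamus and the genes of cortex and hippocampus thus had like medians and shares above background, and these lists do not tell the regions apart. Genes of the striatum (median percentile 51.5) and thalamus (57.0) were all above background, and several of these are also made in the hypothalamus.

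**Figure D2:**
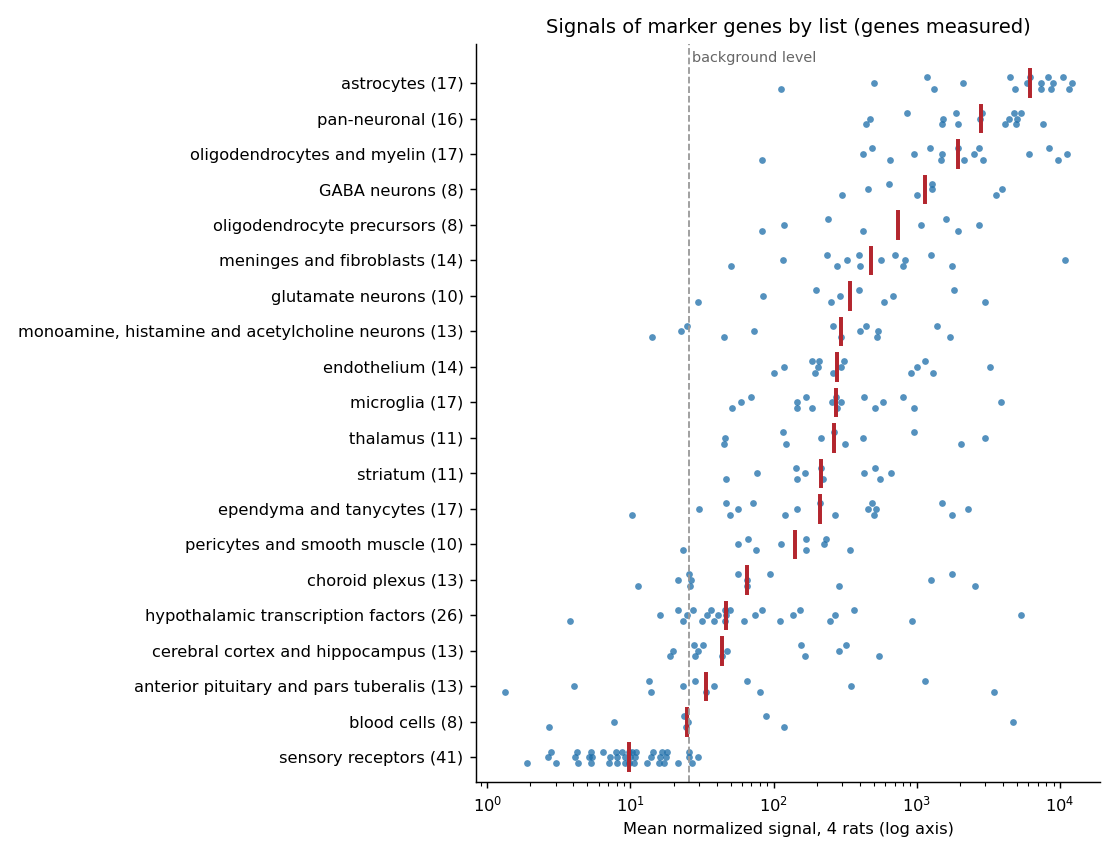
Mean normalized signal over 4 control rats (x, log axis) for each measured gene of 20 lists (rows, with the number measured). Points are genes, red bars the median of a list and the dashed line the background level of 25.8. Astrocyte, neuronal and myelin genes lie far to the right, sensory receptors around the line or left of it.

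Neuropeptide precursors covered the whole range of signals. Of 32 measured, 26 lay above background, near the 83.3% of all genes. In the brightest 500 were 3 of them, and 1, Pmch, was in the brightest 100. Pmch, the precursor of melanin-concentrating hormone from the lateral hypothalamus, ranked 42 with 7754, 7486, 6697 and 7724 in rats 1 to 4. Oxt, the oxytocin precursor, ranked 113 with 4582, 5512, 4984 and 5764. Avp, the vasopressin precursor, ranked 195 with 4105, 4582, 3441 and 4970. Pmch exceeded Oxt, Oxt exceeded Avp and Avp exceeded Cartpt in each of the 4 rats.

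Oxt and Avp are neighbouring genes on chromosome 3 that are transcribed from opposite strands. Their promoters are shown because these are the brightest precursors of the magnocellular neurons. The sequences are RefSeq's on GRCr8, each from 250 bases before the start of the gene to 50 after it and written 5′ to 3′ on the gene's own strand. Capitals mark the matches to 4 motifs searched on both strands, TATAAA, TGANGTCA (close to a cAMP response element), CACGTG (an E-box) and AGGTCA (a nuclear receptor core motif). They occur in 14.2%, 10.2%, 6.42% and 16.2% of 33469 promoters of that length.
Oxt, chr3:138235504-138235803, plus strand: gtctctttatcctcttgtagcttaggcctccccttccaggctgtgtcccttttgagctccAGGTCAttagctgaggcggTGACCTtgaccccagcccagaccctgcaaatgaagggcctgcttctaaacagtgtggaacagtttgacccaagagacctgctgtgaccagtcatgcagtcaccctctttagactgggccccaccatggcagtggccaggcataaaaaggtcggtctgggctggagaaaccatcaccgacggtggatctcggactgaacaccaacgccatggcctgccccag
Avp, chr3:138248473-138248772, minus strand: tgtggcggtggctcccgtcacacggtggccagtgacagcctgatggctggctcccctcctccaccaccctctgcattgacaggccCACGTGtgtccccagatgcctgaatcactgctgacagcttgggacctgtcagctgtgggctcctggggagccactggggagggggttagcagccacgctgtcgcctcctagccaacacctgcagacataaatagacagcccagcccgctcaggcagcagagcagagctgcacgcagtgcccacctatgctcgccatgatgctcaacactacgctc
The Oxt window held AGGTCA on both strands, 190 and 171 bases before the start, and the Avp window held CACGTG 165 bases before it. A match is a description of the letters and not a measured site.

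Of the hypophysiotropic hormones, all 5 lay above background. Sst, somatostatin, which inhibits growth hormone, stood at 1200, 1397, 1008 and 1439. Trh, thyrotropin-releasing hormone, stood at 327, 492, 439 and 336. Crh, the releasing hormone of the stress axis, read 179, 120, 174 and 193, a mean of 167 ± 31.8 and a percentile of 45.4, with rat 2 the lowest. Ghrh, the growth-hormone-releasing hormone, read 126, 101, 51.7 and 124, with rat 3 the lowest. Gnrh1, which drives the gonadal axis from a few scattered neurons, read 40.6, 81.6, 75.1 and 105, with rat 1 the lowest. Sst was at the 90.9th percentile and Trh at the 67.9th, while Crh, Ghrh and Gnrh1 lay below 201.9, the median signal of all named genes.

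Of 8 feeding and arousal peptides, 7 lay above background, with a median percentile of 85.1. Cartpt, the precursor of CART, stood at 2376, 2350, 1483 and 2451. Rats 1, 2 and 4 lay close together and rat 3 well below them. Hcrt, the orexin precursor, was the steadiest, with 1059, 1129, 1063 and 1203. Gal, galanin, stood at 899, 931, 683 and 1061, and Npy, neuropeptide Y, at 756, 888, 551 and 1038. Of the 7 genes above background in this list, 6 were lowest in rat 3, the exception being Hcrt, and 5 were highest in rat 4. Over all genes above background, 2685 of 11838 were lowest in rat 3 and 2684 highest in rat 4. Rat 3 also had the lowest mean of the pituitary list and the highest mean of the thalamus list, both described below. The part of either in these peptide values was not tested. Nucb2, the nesfatin precursor, stood at 398, 337, 303 and 404.

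Pomc, the precursor of melanocortins and beta-endorphin in the arcuate nucleus, read 6.64, 4.41, 4.24 and 17.1, below background in every rat. It rests on 1 probe set, so its signal does not show that the transcript was missing. Agrp and Kiss1 were not measured here.

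The list of other precursors and granins had 18 of 23 above background and a median percentile of 54.6. Beside the granins it held Penk, the enkephalin precursor (1401 ± 175), Cck, cholecystokinin (793 ± 612), Pdyn, the dynorphin precursor (690 ± 186), Adcyap1 (579 ± 73.1), Nts, neurotensin (527 ± 67.9), and Tac1, the substance P precursor (431 ± 88.6), with Calca the dimmest above background at 68.7 ± 15.7. Ucn, Galp, Rln3, Prok2 and Npw were not above background. Of 25 neighbouring pairs in the order of the 26 precursors above background, 8 had the same order in all 4 rats. Tac3 and Crh, for example, differed by 3 units with an SD of 39.9 between rats. The middle of the order is therefore not resolved with 4 animals.

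**Figure D3:**
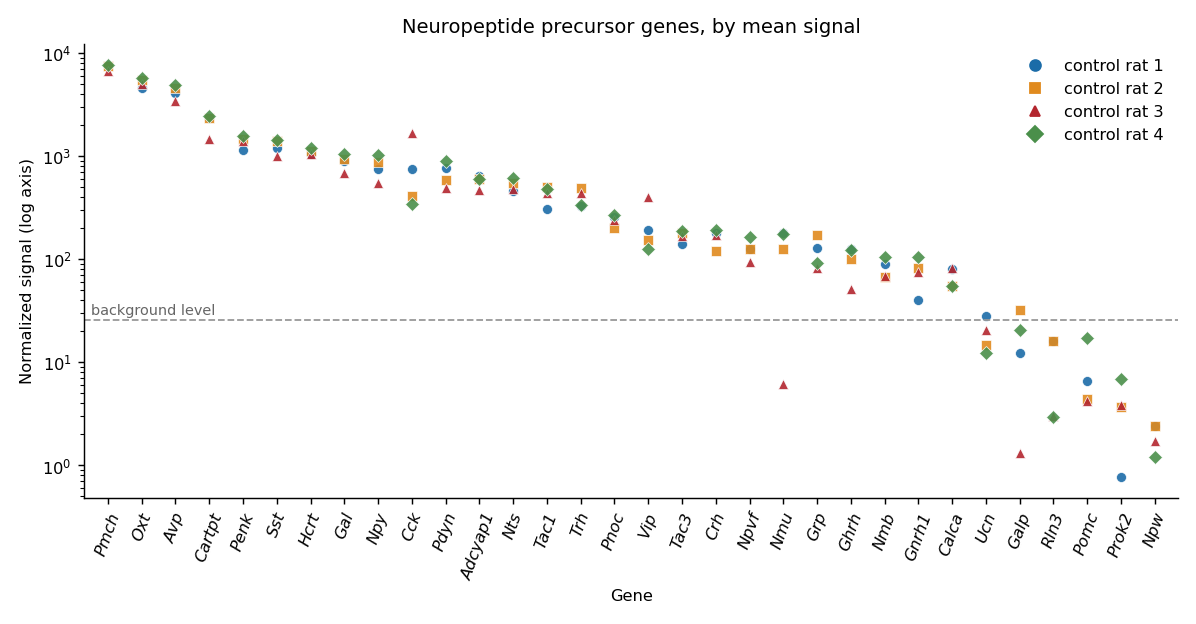
Normalized signal (y, log axis) of 32 neuropeptide precursor genes (x, in order of mean signal) in each of the 4 control rats, marked by colour and shape, with the background level as a dashed line. Markers of Pmch, Oxt and Avp nearly coincide, rat 3 stands apart for Cck, Vip and Nmu, and the last 6 genes lie around or below the line.

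Genes for processing and storing peptides were bright, with all 10 above background and a median percentile of 96.8. After Cpe came the granins and convertase partners Scg2 (5861 ± 399), Scg5 (5088 ± 247) and Pcsk1n (4335 ± 627), and Pam, which amidates peptides (2676 ± 260). The convertase Pcsk2 was the lowest at 284 ± 53.1.

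Receptors for hormones and peptides were dim by contrast. Of 27 measured, 22 lay above background, near the 83.3% of all genes. None was in the brightest 500, and the median percentile was 29.6. Nuclear receptors led, with Thra, a thyroid hormone receptor, at 940 ± 188, and Nr3c1, the glucocorticoid receptor, at 634 ± 53.3. Nr3c2, the mineralocorticoid receptor, stood at 194 ± 32.0, Npy1r at 189 ± 35.1, Hcrtr2 at 185 ± 33.8, Lepr, the leptin receptor, at 72.9 ± 17.1 and Mc4r at 51.1 ± 14.2. Esr1, an oestrogen receptor (8.30 ± 8.42), Esr2 (1.49 ± 0.718) and Oxtr, the oxytocin receptor (1.19 ± 0.47), were not above background, each on 1 probe set.

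Genes that respond to activity, time of day or stress hormones were also measured in these animals. Of 21 immediate early genes, 19 lay above background with a median percentile of 37.2. Fos stood at 494, 353, 353 and 277 in rats 1 to 4, highest in rat 1 and lowest in rat 4. Egr1 stood at 647 ± 124, Arc at 88.8 ± 10.8 and Junb at 68.7 ± 9.76, while Jund, a less inducible member of the Jun family, was the highest of the list at 3723 ± 355. The other probe sets of Jund read 59.9 and 6.69, so its place rests on the brightest. With the median over probe sets Jund went from the 98.2nd to the 29.8th percentile. All 18 clock genes lay above background with a median percentile of 61.6. Dbp stood at 630 ± 85.6, Per2 at 311 ± 31.0, Bmal1 at 155 ± 17.3 and Per1 at 143 ± 28.9. The labels give no hour of death within the light cycle. Of 13 glucocorticoid-responsive genes, all lay above background with a median percentile of 65.1. Tsc22d3 stood at 1251 ± 113, Sgk1 at 733 ± 101 and Fkbp5 at 209 ± 51.1. The 9 inducible heat shock genes had a median percentile of 84.2. Hspa1a read 137, 144, 146 and 152, and Cryab, a small heat shock protein, 915, 1229, 1268 and 905. Dnajb1 read 811, 818, 814 and 773 on its brighter probe set and 310, 542, 518 and 440 on the other, so the steadiness of a gene can rest on the probe set.

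Ribosomal and respiratory genes were bright, with a spread near that of other genes as bright. Of 48 cytosolic ribosomal protein genes, 45 lay above background and their median percentile was 99.1. Rpl3l, a paralogue of muscle, was among the 3 that did not. Of 75 nuclear genes of oxidative phosphorylation, 73 lay above background, and Cox8b, a heart and muscle isoform, stood at 2.57 ± 0.97. The median SD over rats was 0.12 on the log2 scale in both lists. Of the 45 ribosomal genes above background, 24 were highest in rat 1 and 24 lowest in rat 2. Of the 73 respiratory genes above background, 33 were highest in rat 3 and 24 lowest in rat 4. Over all 11838 genes above background, 3600 were highest in rat 1 and 4038 lowest in rat 2. In the same set 2561 were highest in rat 3 and 2402 lowest in rat 4.

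The remaining groups of widely used genes were also near the top. All 14 glycolytic genes lay above background with a median percentile of 98.9, led by Aldoc and by Aldoa, the other aldolase (7282 ± 781), with Mdh1, malate dehydrogenase, at 6816 ± 215 and Ldhb, a lactate dehydrogenase subunit, at 6276 ± 588. The 14 cytoskeletal genes had a median percentile of 98.2, with Actg1, gamma actin, at 9689 ± 394 and Tubb2a, a beta tubulin, at 8364 ± 597. The 9 genes of calmodulin, ubiquitin and translation factors had a median percentile of 99.4, with Eef1a1, an elongation factor, at 8489 ± 228 and Calm2, a calmodulin gene, at 8089 ± 414. The 11 constitutive chaperones had a median percentile of 97.5, with Hsp90ab1 at 5503 ± 408, and the 15 genes of synaptic vesicle release had a median of 95.9, with Atp6v0c, a proton pump subunit, at 5862 ± 566 and Cplx2, a complexin, lowest at 186 ± 17.9. Every gene of these 5 lists lay above background.

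Spread between the 4 rats was small for most genes. The SD is that of log2(signal + 16), in which the added 16 damps the noise of dim genes. Its median was 0.19 over all genes and 0.18 over those above background, where 1 SD is a 1.13-fold difference. By signal, the median SD went from 0.13 in the brightest of 10 equal groups of genes to 0.31 in the group of ranks just above the dimmest. Of 5919 genes brighter than 279.9, 73 had an SD over 0.5 and 7 an SD over 1. Pearson's correlation of log2 signals over all probe sets was 0.967 to 0.981 between pairs of rats, a description across probe sets that share their sequence-dependent brightness.

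The steadiest of these 5919 genes was Armcx4, with 660, 655, 660 and 657. Ndufaf7, an assembly factor of respiratory complex I, read 315, 316, 317 and 318, and Fcer1g, a signalling chain of microglia, read 795, 796, 797 and 789. The values of the 4 rats nearly coincide here, but these genes were picked as the smallest SDs among many, each over only 4 values.

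**Figure D4:**
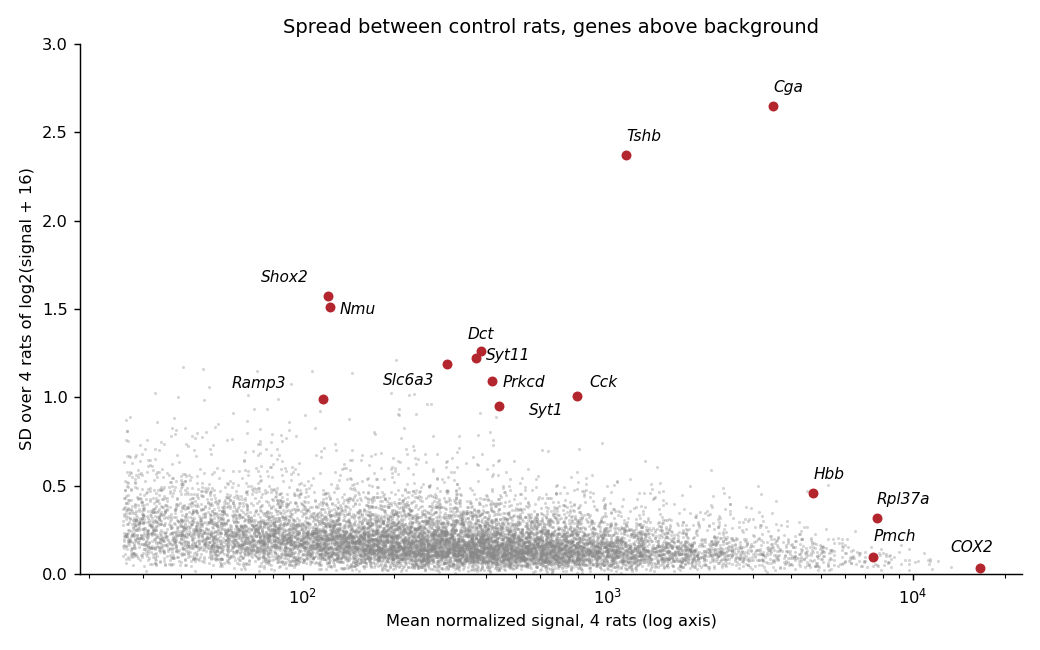
SD over 4 control rats of log2(signal + 16) (y) against mean normalized signal (x, log axis) for the 11838 genes above background, each a grey point. Most genes lie under 0.5. The marked genes include Cga and Tshb, alone above 2, and the steady Pmch and COX2.

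The most variable pair were pituitary genes. Cga, the alpha subunit shared by thyrotropin and the gonadotropins, read 4869, 4052, 102 and 4916 in rats 1 to 4. Tshb, the beta subunit of thyrotropin, read 1943, 1186, 41.4 and 1422. Rat 3 was 39.8-fold below the next rat for Cga and 28.6-fold below it for Tshb, and the other 3 rats lay between 4052 and 4916 for Cga and between 1186 and 1943 for Tshb. Without rat 3 the SD of Cga went from 2.65 to 0.16 and that of Tshb from 2.37 to 0.36. Lhb, the beta subunit of luteinizing hormone, read 83.2, 77.3, 64.6 and 97.9, lowest in rat 3 by a small margin. Prl was below background in every rat and Gh1 close to it, so neither shows an order of the rats. Over the pituitary list, in which 8 of 13 genes lay above background, the mean on the log2(signal + 16) scale was 6.51, 6.46, 5.59 and 6.61. Of those 8 genes, 3 were lowest in rat 3, as many as in rat 2, and 2 were highest in rat 3. Over all genes above background, 2685 of 11838 were lowest in rat 3, 4038 lowest in rat 2 and 2561 highest in rat 3. The low mean in rat 3 was thus not a trait of most of the list. The part that the amount of pars tuberalis in the tissue had in the low Cga and Tshb of rat 3 was not tested.

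The promoters of Cga and Tshb are shown since these 2 genes were low in the same rat. They are written as above.
Cga, chr5:54283090-54283389, plus strand: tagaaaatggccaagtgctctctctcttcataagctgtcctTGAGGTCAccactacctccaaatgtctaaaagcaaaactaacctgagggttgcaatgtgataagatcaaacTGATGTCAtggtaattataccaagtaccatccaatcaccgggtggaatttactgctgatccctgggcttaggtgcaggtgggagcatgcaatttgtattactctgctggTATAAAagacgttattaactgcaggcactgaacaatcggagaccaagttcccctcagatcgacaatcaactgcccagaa
Tshb, chr2:192918005-192918304, minus strand: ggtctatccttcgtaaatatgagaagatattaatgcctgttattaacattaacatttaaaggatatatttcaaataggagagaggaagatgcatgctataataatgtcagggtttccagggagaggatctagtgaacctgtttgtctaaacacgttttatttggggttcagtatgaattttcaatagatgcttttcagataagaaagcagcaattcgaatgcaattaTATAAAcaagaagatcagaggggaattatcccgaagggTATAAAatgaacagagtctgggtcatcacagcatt
Both held TATAAA, 29 bases before the start in Cga and 23 before it in Tshb, and Tshb held another 15 bases after it. Cga held TGANGTCA as TGAGGTCA 209 bases before the start and as TGATGTCA 138 bases before it, the first of which overlaps an AGGTCA.

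Dct, an enzyme of melanin synthesis, read 641, 449, 74.7 and 378, again lowest in rat 3. Nmu, the neuromedin U precursor, read 181, 126, 6.12 and 178. Since 6.12 is below background, rat 3 was at least 4.87-fold lower than the next rat for Nmu. Plagl1, an imprinted zinc finger gene, read 513, 553, 155 and 429.

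Other genes were highest in rat 3. Prkcd, a protein kinase C typical of thalamic neurons, read 352, 200, 959 and 166. Tcf7l2, a transcription factor of the thalamus, read 1014, 670, 1647 and 494, and Ramp3 77.3, 52.6, 282 and 56.3. Shox2, a thalamic homeobox gene, read 131, 47.0, 299 and 9.01. Cck read 750, 410, 1671 and 341, and Kcnc2, a potassium channel of fast-firing neurons, 1217, 944, 2310 and 845. Of the 11 thalamus genes, 8 were highest in rat 3 and the other 3 in rat 1, and 8 were lowest in rat 4. Over all genes above background, 2561 of 11838 were highest in rat 3 and 2402 lowest in rat 4. The list's mean on the log2(signal + 16) scale was 8.32, 7.85, 8.96 and 7.57. Slc17a6, also of that list, did not follow, at 3300, 2755, 3091 and 2864. The striatum list had means of 7.51, 7.92, 8.24 and 7.69, with 9 of 11 genes highest in rat 3. The part of neighbouring tissue in these values was not tested.

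Genes known to be induced by interferon stood higher in rat 3 as well. Isg15, a ubiquitin-like protein, read 105, 103, 436 and 180, and Irf7, a transcription factor of the interferon response, 156, 164, 535 and 216. Rtp4 read 155, 108, 563 and 197, and Ifi27 1693, 1471, 3710 and 1853. A list of 44 such genes was written after the first of these values had been seen, so that its counts describe and support nothing. Of 36 measured, 34 lay above background and 28 of these were highest in rat 3, beside 2561 of 11838 over all genes above background. The mean used for this filter includes rat 3, so a member bright in rat 3 alone can pass it. Without the filter, 29 of the 36 were highest in rat 3, beside 3097 of 14217 over all genes. B2m, a light chain of class I molecules, differed little, at 5850, 6490, 6777 and 6148. The class I genes RT1-S3 (336, 207, 681 and 320) and RT1-T24-3 (189, 225, 561 and 265) were also highest in rat 3.

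Slc6a3, the dopamine transporter, read 472, 407, 246 and 63.4, lowest in rat 4. The vesicular transporter Slc18a2 read 642, 433, 252 and 280, Th 716, 649, 437 and 346, and Ddc 563, 545, 503 and 503. Rats 1 and 2 were above rats 3 and 4 in Th, Slc18a2 and Slc6a3, by far the most for Slc6a3 in rat 4. The brighter probe set of Ddc was nearly level, while its other one read 99.7, 60.9, 33.7 and 54.3, also higher in rats 1 and 2. The dimmer probe set of Slc6a3 read 23.6, 62.8, 52.4 and 2.64, lowest in rat 4 as well but not highest in rat 1.

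**Figure D5:**
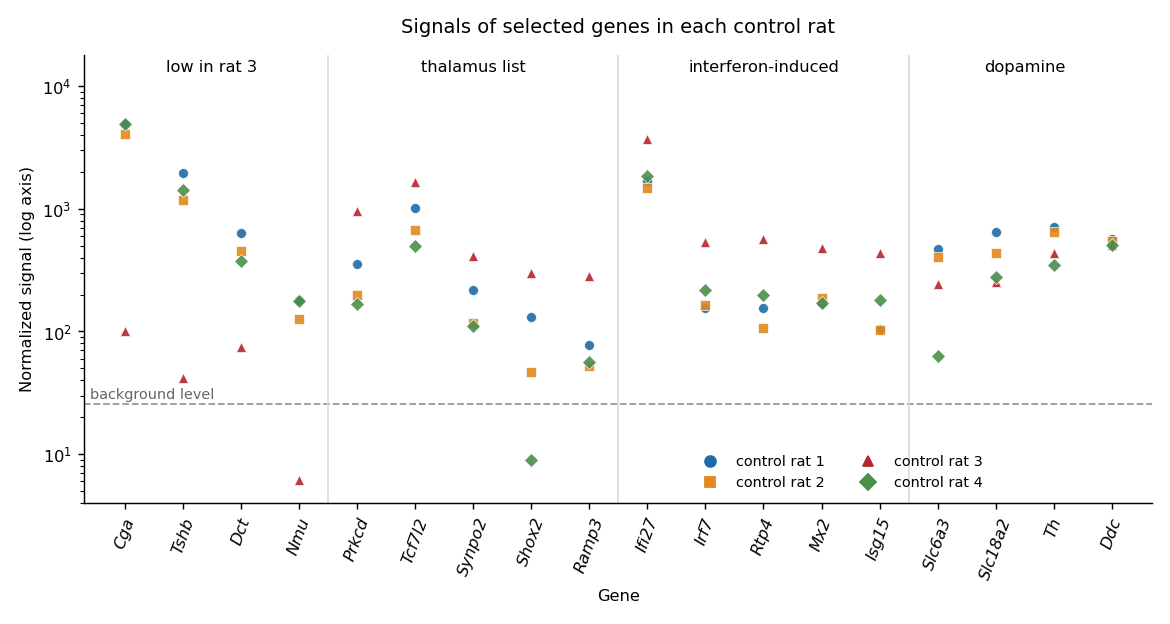
Normalized signal (y, log axis) of 18 genes (x) in each of the 4 control rats, marked by colour and shape, grouped as low in rat 3, thalamus list, interferon-induced and dopamine, with the background level as a dashed line. Rat 3 lies lowest for the first group and highest for the next pair of groups, and rat 4 lowest for Slc6a3.

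Rats 1 and 2 had lone genes too. Syt1 read 142, 432, 737 and 457, lowest in rat 1, and Clstn3, a synaptic adhesion protein, read 150, 532, 325 and 490. Ddx3x-ps1, named as a pseudogene, whose probes may also bind its parent transcript, gave 128, 343, 593 and 461. Cspg5, a neural proteoglycan, gave 202, 744, 546 and 227. Syt11 read 111, 872, 172 and 322 and Lbh 394, 1149, 427 and 464, both highest in rat 2. Among the 11838 genes above background, those in which 1 rat stood 2-fold or more beyond the nearest other in signal + 16 were counted. A gene only just 2-fold apart in signal itself can be missed by this count. Rat 1 was lower in 35 (0.30%) and higher in 1 (0.008%), and rat 2 higher in 25 (0.21%) and lower in 15 (0.13%). Rat 3 was higher in 26 (0.22%) and lower in 18 (0.15%), and rat 4 higher in 2 (0.017%) and lower in 7 (0.059%). The filter used the mean over the 4 rats, so some genes counted as higher passed it through that rat alone. Ddx60 read 15.5, 14.2, 70.5 and 21.3 (rat 3 higher), and Cxcl9 14.1, 20.3, 18.4 and 57.0 (rat 4 higher). Camk2n1 shows how far standing apart rests on the probe set. The brighter probe set read 225, 781, 366 and 311, highest in rat 2, and the other 421, 99.9, 195 and 290, lowest in rat 2.

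The arrays themselves also differed. The median deposited signal was 113.5, 67.03, 100.5 and 116.0 in rats 1 to 4, lowest in rat 2. The CreX spike-in read 8756, 8929, 8792 and 8537 on its 3′ probe set and 8373, 7941, 8161 and 7822 on its 5′ one, with rat 2 not the lowest in either. The 3′ probe set of BioB read 199, 166, 194 and 195, lowest in rat 2. The ratio of 3′ to 5′ signal, which rises as RNA or its copies are shortened, was 4.93, 2.60, 2.08 and 2.66 for beta-actin and 4.77, 2.89, 2.03 and 2.99 for hexokinase, highest in rat 1 in both. The part of these values in the genes that stood apart in rats 1 and 2 was not tested.

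Probe sets of a gene often disagreed. Among 4525 genes with 2 or more, the brightest and dimmest differed by a median of 3.33-fold, and by over 10-fold in 19.1%. Ndrg2 read 8268 on its brightest probe set and 3.19 on the other, Apoe 8672 and 5.62, and Gja1 8988 and 15.3. A low signal on a single probe set, as for Pomc, Oxtr and Esr1, is therefore weak evidence on the level of the transcript.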

How the data were processed

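Total RNA of 16 rat hypothalami was measured, per the labels, on Affymetrix arrays, 1 for each animal. The values are the deposited signal intensity of 31099 probe sets, on a linear scale. MAS5 is named per the submitters' processing notes, and its version and scaling target are not given in the sources used here. Log2 intensities were quantile-normalized between the 16 arrays and returned to linear units, and 57 control probe sets were left out. Of 31042 probe sets, 20826 had 1 symbol in the platform's annotation, 436 several and 9780 none, and the last 2 kinds were not named. Of the 100 brightest probe sets, 15 had no symbol. A gene took its brightest probe set over the 4 control arrays. No groups were compared and no p-value was computed, since levels within 1 group are described. Single rats were examined with Dixon's limit. SDs are over 4 rats. For arrays, their number limits the precision. Analyses used Python 3.11.15, numpy 2.4.6 and pandas 2.3.3. Ranks and SDs were checked on simulated data for 9692 genes with 1 probe set, with equal noise at all signals. That check does not cover the choice among probe sets, the added 16 or the larger spread of dim genes.

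The rule for genes given with a value in every rat took the 12 brightest, the magnocellular, hypophysiotropic and feeding peptides, up to 4 of the brightest and the dimmest of each list, and the 10 of largest SD, and some of the list members are given by mean and SD only. Other members of the 42 lists, the 40 brightest, the 25 of largest and 10 of smallest SD among genes brighter than the median of those above background, and the 10 whose probe sets differ most could be named. Where others were given in every rat, they were chosen after their values were seen. The control arrays and the lists were chosen with earlier results of these data known. Alternatives were normalization, probe set choice, a filter, the mean, the pseudocount and leaving out each rat.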

Additional observations from a re-analysis of the deposited data

Results flagged for a closer look

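A value is given here where, among the 4 rats, the highest or lowest lay farther from the nearest of the others than Dixon's limit for 4 samples allows, as a share of their range. Of 225 results examined, 17 passed, 7.56%, and chance passes about 1 in 20. Over all genes above background 5.49% passed. Some of the genes examined were picked for a large SD over rats, which can favour passing. Lists were also examined beside their own members, so the results overlap. The 7.56% therefore does not measure an excess over chance or over all genes. The odd rat was rat 1 in 5, rat 2 in 5, rat 3 in 6 and rat 4 in 1.

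Rat 3 was the lowest for Cga (0.948), Cartpt (0.916), Tshb (0.862), Nmu (0.850) and the mean of the pituitary list (0.851), of which Cga and Tshb are members, and the highest for Hspa4l (0.8293). Hspa4l differed little in size, with 1032, 1025, 1087 and 1035.

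Rat 2 was the highest for COX2 (1), where the other 3 rats were tied by the normalization, and for the mean of the cytoskeleton list (0.982), Rab3a (0.939), Nrgn (0.888) and Dio2 (0.8621). Dio2 is below background.

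Rat 1 was the highest for the GAPDH ratio of 3′ to 5′ signal (0.917), at 1.39 against 1.14 to 1.16, and for the brightest probe set of Jund (0.877). It was the lowest for Vim (0.874), Gpr6 (0.855) and Igf2 (0.849). Rat 4 was the lowest for Camk2a (0.8492). No explanation was tested for any of these values.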

How the results depend on the processing

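The share of genes above background, 83.3%, was 83.5% with the values as deposited and 82.0% with the median over the probe sets of a gene. It was 82.9% without probe sets whose names end in _s_at, _x_at or _a_at, called suffixed here, and 83.6% with the geometric mean. Leaving out each rat gave 81.6% to 84.8%. With the background set by genes of other organs, an alternative chosen after seeing the data, the level was 52.9 and the share 75.0%. The mean over rats of the median deviation from the gene mean, 0.13 on the log2 scale, was 0.28 as deposited, 0.15 with a pseudocount of 1, and 0.11 to 0.13 when each rat was left out. The share of signal in the brightest 100 genes, 10.69%, was 10.43% as deposited and 10.43% with arrays scaled to the median. It was 10.42% with the 4 control arrays normalized alone, 11.97% with the median over probe sets and 10.43% without suffixed probe sets. With the filter on dim probe sets it was 10.73%, and without each rat 10.69% to 10.71%. Of the brightest 100 genes, 73 stayed among them with the median over probe sets, 84 without suffixed probe sets, and 96 to 100 under the other alternatives. Lists with a median percentile above 50 numbered 27 of 37, and 22 to 27 under the alternatives. Filtering on the background level gives no background level of its own.

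Single ranks depended most on the probe set. Without suffixed probe sets Ndrg2 went from the 99.8th to the 1.88th percentile and Actg1 from the 99.9th to the 30.9th. The bright probe set left out ends in _a_at in both genes. With the median over probe sets Igf2 went from the 94.3rd to the 7.96th and Tcf7l2 from the 87.0th to the 38.4th. Without rat 3 the range of the list means over rats went from 1.02 to 0.15 for pituitary, from 1.39 to 0.75 for thalamus and from 0.92 to 0.26 for interferon-induced genes, and the SD of Prkcd from 1.09 to 0.53 and of Cck from 1.01 to 0.58. Without rat 1 the SD of Syt1 went from 0.95 to 0.41, without rat 2 that of Syt11 from 1.22 to 0.71, and without rat 4 that of Slc6a3 from 1.19 to 0.47. No paired analysis was possible because no groups were compared. Signals near the background level carry no order.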
